A study of Mus musculus with 18 samples.

Results

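The replication-dependent core histone genes of the mouse were taken as every RefSeq protein-coding entry of the long RNA tables whose current symbol is H2ac, H2bc, H3c or H4c with a number, or H2aw, or whose older name is Hist1h to Hist4h of class 2a, 2b, 3 or 4. This rule gave 61 genes of the 15248 genes in the tables, 18 of class H2A, 18 of H2B, 12 of H3 and 13 of H4. Linker histones H1 were not included. H4bc24 (older name Hist1h2br) and H2bu2 (Hist3h2ba) entered as H2B genes through their older names, and H4f16 (Hist4h4) as an H4 gene. On mm9, 48 of the genes lie on chromosome 13 between 21807632 and 24026720, 10 on chromosome 3 between 96023839 and 96082924, 2 on chromosome 11 and 1 on chromosome 6. The RNAome table held all 61 genes. The mRNA table held 58, without H2bc18, H4c14 and H4f16. Every one of these passed the filter on low counts, with no member lost in either assay.

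The study read RNA by a poly(A) method and by a method for total RNA, with exposure to cisplatin as the condition. The cells, embryonic stem (ES) cells of the mouse strain C57BL/6, are HPRT deficient, that is, they lack a purine salvage enzyme, and were at passage 19 to 22. They were grown for 2 passages on feeder cells and 1 passage on gelatin, and then received DNA-crosslinking cisplatin at 2.5 µM, or the same volume of the vehicle DMSO. Long RNA was read in 12 libraries, 3 per treatment and assay, from 6 RNA samples named here by their codes, 8.4.16, 8.5.16 and 8.6.16 for the controls and 8.3.3, 8.4.3 and 8.5.3 for cisplatin. The sources used here do not give the exposure time, the origin of the line or whether samples within a group were separate cultures. The p-values then measure the spread between these samples alone, which may be technical. In such bulk samples, fewer cells in S phase and less histone RNA per cell cannot be told apart.

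Core histones H2A, H2B, H3 and H4 form the protein octamer around which DNA is wrapped, with a dimer pair of H2A and H2B on each face of a tetramer of H3 and H4. Their genes lie in clusters, have no introns in their coding parts and are transcribed mainly in S phase, when new DNA has to be packed. Their main mRNAs end in a conserved stem-loop, which the stem-loop binding protein Slbp recognises, in place of a poly(A) tail, so poly(A) selection recovers them poorly, and they are degraded rapidly when DNA synthesis is blocked.

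The 3′ stem-loop is shown first because its letters were found in most of these genes and in few others. The first 150 bases of genome after the annotated stop codon (GENCODE vM1 on NCBIM37, the assembly of mm9) were searched on the coding strand for a stem of 6 bases that begins with GG and has T at its end, a loop of any 4 bases and the exact reverse complement of the stem. Of the 60 core histone genes with an annotated stop codon, 57 held a match (95.0%), against 86 of all 21930 protein-coding genes (0.392%). The match was found in 17 of 18 H2A, 16 of 18 H2B, 11 of 11 H3 and 13 of 13 H4 genes. It began at a median of 37 bases after the stop codon in H2A, 29 in H2B, 30 in H3 and 33 in H4. No match lay in that window for H2ac22, H2bc18 and H2bc21, which says only that these letters are not in this window. The most frequent form, other forms with the same stem and forms that set H4 apart are given 5′ to 3′ from NCBIM37. They are DNA of the coding strand, with stem, loop and stem in capitals and 5 bases on each side in lower case.
H2aw (H2A, chr11:58768674-58768689, plus strand): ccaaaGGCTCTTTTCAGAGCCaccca
H2bc1 (H2B, chr13:24025599-24025614, minus strand): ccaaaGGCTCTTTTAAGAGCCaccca
H3c8 (H3, chr13:23627758-23627773, plus strand): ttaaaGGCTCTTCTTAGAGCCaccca
H4c4 (H4, chr13:23673819-23673834, plus strand): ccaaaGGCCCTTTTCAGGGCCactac
H4c2 (H4, chr13:23849235-23849250, plus strand): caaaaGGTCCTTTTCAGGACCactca
The stem separated H4 from the other classes. All 17 H2A, 16 H2B and 11 H3 matches had the stem GGCTCT, while 11 of the H4 matches had GGCCCT and 2 had GGTCCT, as in H4c11 and H4c2. The form printed for H2aw was present in 34 genes, 15 of H2A, 12 of H2B and 7 of H3, and in 0 H4 genes. The form of H2bc1, with a different last loop base, occurred in 8 genes of H2A, H2B and H3. H3c8 carried a loop seen in 1 gene only.

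Promoters of 300 bases (250 before and 50 after the start, RefSeq on GRCm38.p6) were found for 18 H2A, 16 H2B, 10 H3 and 12 H4 genes, and are described by class. The octamer ATTTGCAT, which POU factors such as Pou2f1 bind, lay on either strand in 7 of 16 H2B (43.8%) and 7 of 18 H2A promoters (38.9%), in 0 of 10 H3 and in 0 of 12 H4 promoters, against 1.74% of all 32851 promoters. The CCAAT box was present on either strand in all 18 H2A, 16 H2B and 10 H3 promoters but in 3 of 12 H4 promoters, against 37.4% of all. TATAAA, also searched on both strands, was found in 11 H2A, 8 H2B, 4 H3 and 8 H4 promoters, against 13.6% of all. Each motif was counted by itself. A gene with several promoters was counted once. These are matches of letters and no measure of binding. An H2A, an H2B and an H4 promoter are given with every match of the 3 motifs, on either strand, in capitals.
H2aw promoter (GRCm38.p6, chr11:58954435-58954734, plus strand): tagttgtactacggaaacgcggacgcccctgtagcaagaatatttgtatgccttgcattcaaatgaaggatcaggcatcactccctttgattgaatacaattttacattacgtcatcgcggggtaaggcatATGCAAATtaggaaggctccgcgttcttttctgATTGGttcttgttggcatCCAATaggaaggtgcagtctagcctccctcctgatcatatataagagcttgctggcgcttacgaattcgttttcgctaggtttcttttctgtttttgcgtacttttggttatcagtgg
H2bc1 promoter (GRCm38.p6, chr13:23934107-23934406, minus strand): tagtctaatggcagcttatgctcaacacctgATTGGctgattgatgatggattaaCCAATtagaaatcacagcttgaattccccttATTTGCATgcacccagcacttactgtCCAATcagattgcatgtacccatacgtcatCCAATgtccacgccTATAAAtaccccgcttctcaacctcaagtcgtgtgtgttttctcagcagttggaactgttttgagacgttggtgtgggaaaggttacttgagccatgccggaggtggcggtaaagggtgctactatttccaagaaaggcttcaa
H4c4 promoter (GRCm38.p6, chr13:23581318-23581617, plus strand): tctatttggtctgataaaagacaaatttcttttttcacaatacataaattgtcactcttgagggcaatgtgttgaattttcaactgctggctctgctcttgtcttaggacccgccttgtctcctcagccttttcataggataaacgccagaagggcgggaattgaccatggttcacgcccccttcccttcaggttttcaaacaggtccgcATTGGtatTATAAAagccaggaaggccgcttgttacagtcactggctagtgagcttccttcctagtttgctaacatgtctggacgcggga
The H2aw and H2bc1 promoters held the octamer and several CCAAT boxes. In the H4c4 promoter a single CCAAT box, on the other strand, stood before TATAAA, with no octamer.

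Members of a class are near-identical copies, and how reads that match several copies were counted is not stated. The main tests use the expression tables. The summed expression counts of a class exceeded those of the abundance table, the other deposited count table of each assay, by 6.25 to 6.66 times for H2A, 5.47 to 6.06 times for H2B, 4.94 to 5.06 times for H3 and 3.03 to 3.63 times for H4 in RNAome libraries. In mRNA libraries the expression sums were 11.97 to 13.23 times the abundance sums for H2A and 6.30 to 6.89 times for H2B. They were 6.94 to 7.39 times for H3 and 5.24 to 6.08 times for H4. H3c13, H3c14 and H4c1 had no entry in the mRNA abundance table. H2bc23 and H4bc24 had the same count in all 24 values of both tables and both assays. Members may thus share reads, so counts of members called are not counts of separate observations, and the class sum is given beside them. A few members had closer counts in the 2 tables: in RNAome sequencing the expression count was under 1.5 times the abundance count for H2bc18, H4c4 and H4f16, and in mRNA sequencing for H2bc21.

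Core histone RNA was a small part of the poly(A) libraries and a larger part of the total RNA libraries. The shares given here use expression-table counts, in which a read may be counted for several copies, so they may be too high. In RNAome sequencing, core histones took 1.99%, 2.13% and 1.23% of the counts on tested genes in cisplatin 8.3.3, 8.4.3 and 8.5.3, against 3.27%, 3.75% and 5.44% in control 8.4.16, 8.5.16 and 8.6.16. Every control library lay above every cisplatin library on this measure, which uses no scaling factor. In mRNA sequencing the shares were 0.0641%, 0.0689% and 0.0723% with cisplatin, and 0.0846%, 0.105% and 0.067% in controls, so that control 8.6.16 lay among the cisplatin libraries. Counts on tested genes ranged from 9502794 to 14821682 per library in mRNA and from 4990985 (control 8.4.16) to 19331955 in RNAome sequencing. Hprt, which encodes the enzyme the cells are deficient in, was at 0.93 ± 0.18 CPM (counts per 1000000 counts on tested genes, after scaling) in control and 1.12 ± 0.08 CPM in cisplatin mRNA libraries (SD, n = 3 each). On the CPM scale, tested core histones summed in RNAome expression counts to 17034 to 19552 with cisplatin and 30813 to 47621 in controls. From the abundance table the sums were 4296 to 5207 and 7100 to 11212 CPM. In mRNA sequencing the abundance table gave 77.1, 83.2 and 86.7 CPM with cisplatin and 112.5, 133.9 and 85.8 CPM in controls.

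In total RNA, core histone RNA was lower after cisplatin, with the most negative class median in H2A and the least negative in H4. Of the 61 genes 50 fell and 0 rose in RNAome sequencing (edgeR quasi-likelihood test, Benjamini-Hochberg adjusted p under 0.05 over 9978 genes). Of all tested genes 1.07% fell and 0.972% rose. The genes that fell were 18 of 18 H2A, 18 of 18 H2B, 12 of 12 H3 and 2 of 13 H4 genes. The median log2 fold change was -1.50 for H2A, -1.33 for H2B, -1.05 for H3 and -0.87 for H4, against -0.00 for all tested genes. All 3 cisplatin libraries lay below all 3 controls for 59 of the 61 genes, and for 9.14% of all tested genes. The exceptions were H2ac21 and H4c14. Without cisplatin 8.4.3 the number of members that fell was 23, with 16 H2A and 7 H2B genes, among 38 lower of 10288 genes tested. Without cisplatin 8.3.3 it was 32, among 58 lower of 10226.

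**Figure D1:**
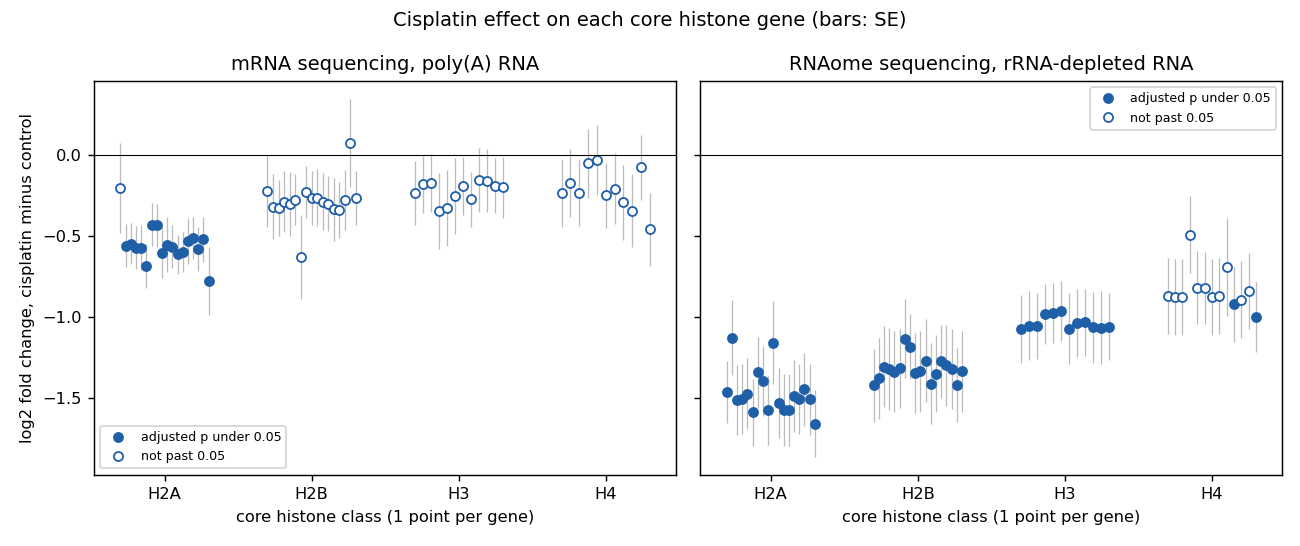
Log2 fold change of each core histone gene, cisplatin minus control, in mRNA sequencing (left) and RNAome sequencing (right), by class, with SE bars. Filled points passed an adjusted p of 0.05: 17 H2A genes on the left, and 18 H2A, 18 H2B, 12 H3 and 2 H4 genes on the right.

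The class sums showed the same order on the CPM scale. H2A summed to 2775, 2915 and 3153 CPM in cisplatin 8.3.3, 8.4.3 and 8.5.3, and to 6520, 9734 and 8759 CPM in control 8.4.16, 8.5.16 and 8.6.16. The log2 ratio of the group means was -1.50 ± 0.18 (SE, n = 3 per group). For H2B the sums were 3768, 3980 and 4239 CPM with cisplatin and 6625, 13252 and 10028 CPM in controls, a log2 ratio of -1.32 ± 0.29. H2B thus had the widest spread among controls. H3 summed to 2865, 3206 and 3117 CPM with cisplatin and 5602, 7335 and 6085 CPM in controls, a log2 ratio of -1.05 ± 0.12. For H4 the sums were 7627, 8131 and 9043 CPM with cisplatin and 12066, 17300 and 14110 CPM in controls, a log2 ratio of -0.81 ± 0.17. The cisplatin and control libraries did not overlap in any class, the cisplatin libraries lay close together, and control 8.4.16 was the lowest control in each class. From the abundance table the log2 ratios were -1.47, -1.28, -1.05 and -0.73 for H2A, H2B, H3 and H4. Sums over chosen members were given no test.

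**Figure D2:**
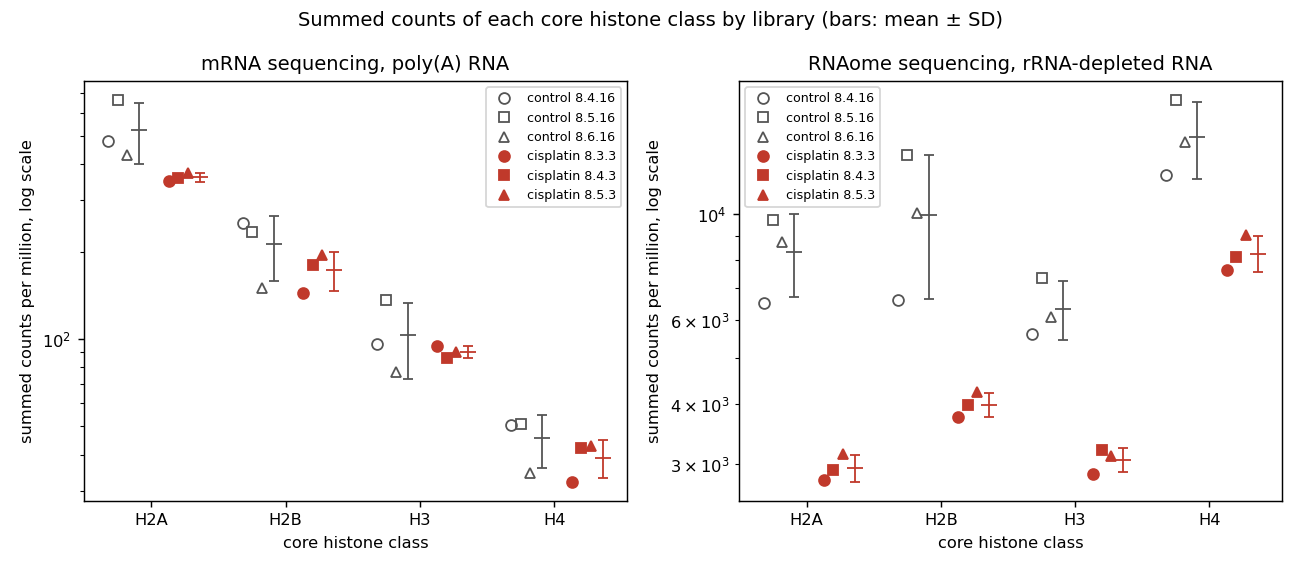
Summed CPM of each core histone class in each library on a log scale, for mRNA sequencing (left) and RNAome sequencing (right), with controls as open and cisplatin as filled symbols and mean ± SD beside them. In RNAome sequencing the 3 cisplatin libraries lie below the 3 controls in each class, while in mRNA sequencing the groups overlap for H2B, H3 and H4.

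H2A genes encode the histone whose C-terminal tail leaves the nucleosome near the DNA entry. H2aw (NM_178218, chromosome 11, 58768187 to 58770176), the H2A gene of the cluster on that chromosome, had the lowest fold change of all members in the expression table. It was at 133.8, 146.1 and 155.8 CPM in cisplatin 8.3.3, 8.4.3 and 8.5.3, and at 378.3, 514.9 and 478.0 CPM in control 8.4.16, 8.5.16 and 8.6.16. The log2 fold change was -1.65 ± 0.20 (SE, adjusted p = 0.000266). From the abundance table it was -1.64 ± 0.19, and several members lay lower, with H2ac1 the lowest at -2.18 ± 0.34. H2aw lies over part of Trim17 in the annotation, and strand was not stated for the counting. The H2A genes with the highest counts, H2ac7, H2ac23 and H2ac24 on chromosome 13, fell by 1.44 ± 0.22, 1.57 ± 0.22 and 1.57 ± 0.22 on the log2 scale. H2ac23 and H2ac24 had nearly equal values in every library. The least changed H2A gene was H2ac10 (chromosome 13, 23625775 to 23626173), with 121.1 ± 46.1 CPM in controls and 55.7 ± 3.97 CPM after cisplatin, a log2 fold change of -1.13 ± 0.23 (adjusted p = 0.0105).

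H2B genes encode the partner of H2A in the dimer. H2bc1 (NM_175663, chromosome 13, 24025637 to 24026025), which lies head to head with H2ac1, was at 101.5, 111.0 and 114.2 CPM with cisplatin and at 191.5, 374.0 and 306.7 CPM in control 8.4.16, 8.5.16 and 8.6.16. It fell by 1.42 ± 0.23 on the log2 scale (adjusted p = 0.00174), the most in its class in the expression table. From the abundance table H2bc4 fell the most, by 1.65 ± 0.20. H2bc4, H2bc8 and H2bc22, which had the highest H2B counts, fell by 1.41 ± 0.25, 1.29 ± 0.25 and 1.34 ± 0.25. At the other end, H2bc18 (NM_175666, chromosome 3, 96073644 to 96082924) was at 245.2, 235.1 and 270.2 CPM with cisplatin and at 401.0, 773.0 and 471.3 CPM in the same order of controls, and fell by 1.13 ± 0.24 (adjusted p = 0.0149). Its expression count was 1.04 times its abundance count, so the 2 tables gave nearly the same count.

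H3 genes encode the histone with the longest, most modified N-terminal tail. Their fold changes ran from -1.15 (H3c1) to -0.87 (H3c15) on the log2 scale in the abundance table. In the expression table the range was narrower, from -1.07 to -0.96. H3c1 (NM_013550, chromosome 13, 23853722 to 23854255) was at 239.0, 271.5 and 256.8 CPM with cisplatin and at 465.0, 632.8 and 517.4 CPM in controls 8.4.16, 8.5.16 and 8.6.16, a fall of 1.07 ± 0.21 (adjusted p = 0.00709). H3c7, H3c6 and H3c2, with the highest H3 counts, fell by 1.07 ± 0.22, 1.06 ± 0.22 and 1.07 ± 0.22. H3c15 on chromosome 3 had 181.1 ± 30.3 CPM in controls and 93.0 ± 3.81 CPM after cisplatin, and fell by 0.96 ± 0.18.

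H4 genes encode the most conserved core histone, the partner of H3. Most H4 genes did not pass the test, although 12 of the 13 had every cisplatin library below every control. The genes that fell were H4f16 (NM_175652, chromosome 6, 136752589 to 136752900) and H4c6 on chromosome 13. H4f16, the only member on its chromosome, was at 3.03, 3.58 and 4.18 CPM with cisplatin and at 6.05, 8.75 and 6.18 CPM in controls, a fall of 1.00 ± 0.21 (adjusted p = 0.0141). H4c6 fell by 0.92 ± 0.23 (adjusted p = 0.0464). H4c8 and H4c1 had log2 fold changes of -0.89 ± 0.24 and -0.87 ± 0.24 (adjusted p = 0.0613 and 0.0686). With DESeq2, or from the abundance table, where 1.3% of all genes fell, 11 of the 13 H4 genes fell, and without control 8.4.16 the number was 9. With totals only it was 0, as it was when control 8.5.16 or either of cisplatin 8.3.3 and 8.4.3 was left out, and it was 1 when control 8.6.16 or cisplatin 8.5.3 was.

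H4c4 (NM_175654, chromosome 13, 23673467 to 23673859) stood apart in level. In control RNAome libraries it reached 7214 ± 1859 CPM per kilobase of transcript in the abundance table, against 15.4 to 465.6 for the other 12 H4 genes (SD, n = 3). It held 61.7% to 69.4% of the H4 abundance counts in the 6 RNAome libraries and 8.75% to 17.9% in the mRNA libraries. Its expression-table level was 2056, 2259 and 2605 CPM with cisplatin, and 2685, 4504 and 3983 CPM in control 8.4.16, 8.5.16 and 8.6.16. Cisplatin 8.5.3 and control 8.4.16 nearly met there, and the log2 fold change was -0.69 ± 0.30 (adjusted p = 0.311). From the abundance table the groups overlapped, with 2219 CPM in cisplatin 8.5.3 and 2188 CPM in control 8.4.16. Without H4c4 the H4 sum gave a log2 ratio of -0.85 in place of -0.81. H4c14 (chromosome 3, 96065627 to 96067234), with 343.1 ± 119.9 CPM in controls and 244.2 ± 22.1 CPM after cisplatin, had the smallest change of all members (-0.49 ± 0.24, adjusted p = 0.37), and its groups overlapped.

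By chromosome, the median log2 fold change in RNAome sequencing was -1.50 for the 13 H2A genes on chromosome 13 and -1.37 for the 4 on chromosome 3. For H2B it was -1.33 for 15 genes and -1.16 for 2 genes. For H3 it was -1.06 for 9 genes and -0.97 for 3 genes. In H4, the 11 genes on chromosome 13 had a median of -0.87 and H4c14 alone represented chromosome 3. In mRNA sequencing the medians on chromosomes 13 and 3 were -0.57 and -0.50 for H2A, but -0.29 and -0.63 (H2bc21 alone) for H2B and -0.19 and -0.33 for H3, the other order. Copies may share reads across clusters, and the difference was not tested.

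Ratios between class sums within a library need no scaling factor. In RNAome sequencing the treatment groups did not overlap for 4 of the 6 pairs of classes. The ratio of H2A to H4 counts was 0.364, 0.359 and 0.349 in cisplatin 8.3.3, 8.4.3 and 8.5.3, against 0.540, 0.563 and 0.621 in control 8.4.16, 8.5.16 and 8.6.16. The group means were 0.357 ± 0.008 and 0.575 ± 0.041 (SD, n = 3). H2B to H4 was 0.484 ± 0.014 with cisplatin and 0.675 ± 0.113 in controls, and H3 to H4 was 0.372 ± 0.025 and 0.440 ± 0.022, also without overlap. H2A to H3 went the same way, at 0.963 ± 0.051 and 1.31 ± 0.14. For H2A to H2B the groups overlapped, at 0.738 ± 0.006 and 0.864 ± 0.125, and so they did for H2B to H3. H4 made up 45.2% ± 0.91 of core histone counts with cisplatin and 37.2% ± 1.67 in controls, while H2A made up 16.1% ± 0.15 and 21.4% ± 1.03. In the abundance table the H2A to H4 ratio was 0.175 ± 0.013 and 0.291 ± 0.011. Such ratios over chosen members carry no p-value, and transcripts of the classes differ in length, so a ratio is compared between libraries and not with 1.

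**Figure D3:**
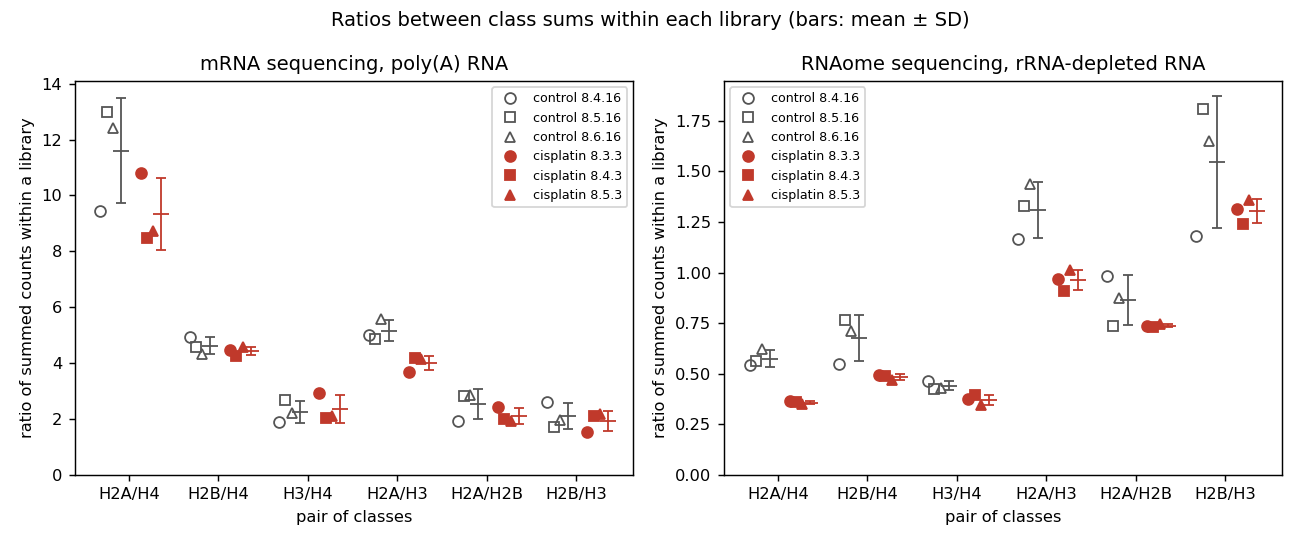
Ratio of summed counts between pairs of core histone classes in each library, for mRNA sequencing (left) and RNAome sequencing (right), with mean ± SD. In RNAome sequencing H2A/H4 lies at 0.349 to 0.364 with cisplatin and 0.540 to 0.621 in controls. H2A/H3 is the single pair whose groups are apart in both assays.

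In poly(A) RNA the response was smaller and, in the main comparison, passed the test for H2A genes alone. Of the 58 genes 17 fell and 0 rose (edgeR, adjusted p under 0.05 over 14083 genes), while 19.2% of all tested genes fell and 18% rose in the same comparison. The 17 were 17 of 18 H2A genes. H2A also had the highest summed expression counts per mRNA library, 3810 to 9520, against 1811 to 3355 for H2B. H3 had 877 to 1952 and H4 406 to 734. The part of count depth and shared reads in these calls was not tested. No gene of the 17 H2B, 12 H3 and 11 H4 genes passed by edgeR or DESeq2, and 18 of the 58 had an unadjusted p under 0.05 by edgeR. Median log2 fold changes were -0.56 for H2A, -0.29 for H2B, -0.20 for H3 and -0.23 for H4, against 0.01 for all tested genes. The count moved with single controls. Without control 8.6.16, 36 genes fell, 17 of H2A, 15 of H2B, 3 of H3 and 1 of H4, among 2783 lower of 14274 genes tested. The abundance table gave 8 of 43 genes tested there, all H2A (19.5% of all genes fell there).

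The mRNA class sums show this spread among controls. H2A summed to 348.8, 358.7 and 372.0 CPM in cisplatin 8.3.3, 8.4.3 and 8.5.3, and to 479.5, 663.7 and 429.2 CPM in control 8.4.16, 8.5.16 and 8.6.16, a log2 ratio of -0.54 ± 0.19 (SE) without overlap. H2B summed to 144.0, 180.3 and 195.0 CPM with cisplatin and to 251.1, 233.9 and 150.2 CPM in controls (-0.29 ± 0.27), with control 8.6.16 inside the cisplatin range. H3 summed to 94.4, 85.8 and 90.0 CPM with cisplatin and to 95.7, 136.1 and 76.8 CPM in controls (-0.19 ± 0.24). The H3 controls lay on both sides of the cisplatin libraries, and without control 8.5.16 the H3 log2 ratio was 0.06. For H4 the sums were 32.3, 42.3 and 42.7 CPM with cisplatin and 50.8, 51.2 and 34.6 CPM in controls (-0.22 ± 0.23). Control 8.5.16 was the highest control for all 18 H2A and all 12 H3 genes, and control 8.6.16 the lowest for 56 of the 58 members.

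Single genes followed their class, with exceptions. H2ac23, the H2A gene with the highest mRNA counts (NM_001177544, chromosome 13, 21902236 to 21902754), was at 26.7, 27.2 and 27.4 CPM with cisplatin and at 37.3, 51.2 and 34.9 CPM in control 8.4.16, 8.5.16 and 8.6.16, a fall of 0.61 ± 0.12 (adjusted p = 0.00109). H2ac24 and H2ac7 fell by 0.60 ± 0.12 and 0.58 ± 0.13. As in total RNA, H2aw had the lowest fold change in the expression table. It was at 5.80, 5.07 and 6.05 CPM with cisplatin and at 10.6, 11.9 and 6.28 CPM in controls, a fall of 0.78 ± 0.21 (adjusted p = 0.00924). From the abundance table H2ac15 was lowest, at -1.48 ± 0.41, with H2aw at -0.91 ± 0.25. H2ac1 was the H2A gene that did not pass, at 1.68 ± 0.19 and 1.90 ± 0.59 CPM (log2 fold change -0.21 ± 0.28, adjusted p = 0.605).

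H2bc21 (NM_178214, chromosome 3, 96025044 to 96027661) was the only member outside H2A whose mRNA groups did not overlap in the expression table. Of all tested genes there, 23.9% had every cisplatin library below every control. H2bc21 was at 1.27, 1.38 and 1.37 CPM with cisplatin and 2.18, 2.30 and 1.73 CPM in controls, a log2 fold change of -0.63 ± 0.26 (adjusted p = 0.0682). H2bu2, on chromosome 11, was the single member with a positive value, 0.07 ± 0.27 (adjusted p = 0.862), at 2.64 ± 0.63 and 2.43 ± 0.78 CPM, while the abundance table gave -0.43 ± 0.37. H2bc4, H4bc24 and H2bc23, with the highest H2B counts, had log2 fold changes of -0.29 ± 0.17, -0.27 ± 0.16 and -0.27 ± 0.16. In H3 the range ran from -0.35 ± 0.23 for H3c13 to -0.15 ± 0.20 for H3c4, and H3c2, H3c10 and H3c11, with the highest counts, lay at -0.20, -0.18 and -0.17. In H4, H4c9 had the lowest value and the highest counts (-0.46 ± 0.22, adjusted p = 0.125), H4c18 the highest value (-0.03 ± 0.21), and H4c2 and H4c8 lay at -0.25 and -0.08.

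The cisplatin effects of the assays were compared in a single fit of the 12 libraries. The fold change was more negative in RNAome than in mRNA sequencing for all 58 genes, against 42.6% of all 13070 genes. It was more negative by a median of 0.96 on the log2 scale for H2A, 1.04 for H2B, 0.86 for H3 and 0.64 for H4. By edgeR, 0 of the 58 differences and 0% of the 13070 genes passed after adjustment, and the smallest adjusted p was 0.446. Of the 58, 52 had an unadjusted p under 0.05. The share of all genes at that unadjusted p is not given here, and members may share reads. With the RNA sample as a block, which pairs the libraries that share a sample code, 9 members passed, 8 of H2A and H2bu2, among 13 of all genes. Without control 8.4.16 in either assay, 22 passed, 7 of H2A and 15 of H2B, among 30 lower and 2 higher of 13177 genes tested. The largest differences in the expression tables were in H2bu2 (-1.50 ± 0.43) and H2ac1 (-1.27 ± 0.33), neither of which passed in poly(A) RNA. In the abundance tables they were -1.11 and -2.67, and several members, such as H2bc14 at -1.82, lay between them.

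Levels differed between the assays in the same direction for all 58 genes, and by class. With treatment as covariate, 58 of 58 were higher in RNAome sequencing relative to the other genes of the library, against 32.3% of all tested genes. This scale sets the median gene near equality, at -0.03. The median log2 difference was 7.27 for H2A, 8.67 for H2B, 9.04 for H3 and 11.42 for H4. In the expression tables H4 and H2A did not overlap: H4 genes ran from 10.98 to 13.49 and H2A genes from 5.18 to 8.84. In the abundance tables they did, with H4 from 9.55 to 14.80 and H2A from 5.41 to 10.14. The medians there were 10.89 for H4 and 8.08 for H2A. H4c4 was the highest, at 13.49 ± 0.24 (SE). The lowest were H2ac10 (5.18 ± 0.17), H2bc21 (5.20 ± 0.16) and H2ac1 (5.53 ± 0.19). H2bc21, one of the genes without a stem-loop match after the stop codon, lay well below the other H2B genes, while H2ac22, another, lay at 6.94 ± 0.20, within the range of H2A. In the abundance table H2bc21 was the lowest of 55 genes, at 3.44 ± 0.25. How sequence bears on these levels was not tested.

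**Figure D4:**
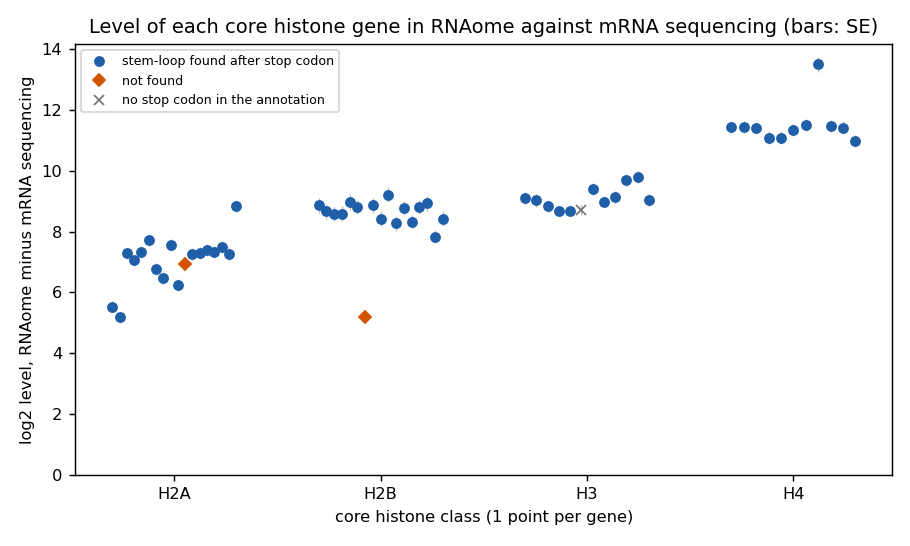
Log2 level of each core histone gene in RNAome minus mRNA sequencing, by class, with SE bars. Colour and shape give whether a stem-loop was found within 150 bases after the stop codon. H4 genes lie from 10.98 to 13.49, and the H2B gene without a match, H2bc21, at 5.20.

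Genes that act on histone mRNA were read from lists, beside the 19.2% of all tested genes that fell and the 18% that rose in mRNA sequencing. Of 12 genes for histone gene transcription, 4 fell and 1 rose in mRNA sequencing and 0 passed by edgeR in RNAome sequencing, where 1 had an unadjusted p under 0.05. Pou2f1, which encodes an octamer-binding POU factor, went from 28.9 ± 3.44 to 17.6 ± 0.64 CPM, a fall of 0.71 ± 0.10 (adjusted p = 8.12e-05). Yy1, a zinc finger factor gene, fell by 0.31 ± 0.06, Gon4l by 0.18 ± 0.05 and E2f4, encoding an E2F family member, by 0.16 ± 0.05. Of 27 genes for histone mRNA processing and decay, 6 fell and 3 rose in poly(A) RNA, with a list median of -0.03. The share that fell was close to the 19.2% of all genes. Wdr33, a polyadenylation factor gene, fell by 0.40 ± 0.05, Celf1, an RNA-binding protein gene, by 0.37 ± 0.05, the decapping enzyme gene Dcp2 by 0.33 ± 0.07 and the cap-binding protein gene Ncbp1 by 0.23 ± 0.05. None of the 26 tested in RNAome sequencing passed by edgeR, with 3 at an unadjusted p under 0.05.

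Of 36 genes of S phase, 8 fell and 3 rose in mRNA sequencing, with a list median of -0.03. The share that fell was close to the 19.2% of all genes, and the share that rose was below their 18%. In RNAome sequencing 0 passed by edgeR, 3 had an unadjusted p under 0.05 and the median was 0.03. Pola1, encoding the catalytic subunit of DNA polymerase alpha, fell by 0.66 ± 0.06 in poly(A) RNA, the helicase subunit gene Mcm6 by 0.25 ± 0.04 and the clamp loader gene Rfc1 by 0.25 ± 0.05, while Rrm2, encoding a ribonucleotide reductase subunit, rose by 0.31 ± 0.06.

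Histone genes outside the core classes gave a further comparison. The linker histones H1, which bind DNA between nucleosomes, had 6 of 7 tested genes lower in RNAome sequencing, with a median of -1.25. H1f2 went from 120.1 ± 15.2 to 39.3 ± 1.88 CPM and fell by 1.61 ± 0.17, and H1f4 fell by 1.54 ± 0.17. In mRNA sequencing 3 of 7 fell: H1f0 by 1.04 ± 0.09, H1f10 by 0.67 ± 0.10 and H1f2 by 0.83 ± 0.21. H1f3 was at -0.44 ± 0.27. Replacement variants, most of which come from polyadenylated mRNAs made throughout the cell cycle, had 1 of 7 lower in RNAome sequencing. That was H2ax (-0.76 ± 0.18), which is known to make a stem-loop mRNA as well as a polyadenylated one, with H2aj at -0.66 ± 0.21 not past the threshold. In poly(A) RNA 4 of the 7 fell, Cenpa, H2az1, H3f3b and H2ax, by 0.31 to 0.34 on the log2 scale, and H2aj rose by 0.31 ± 0.11.

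Marker genes were read beside these results. Of 10 ES cell markers, 7 fell and 0 rose in mRNA sequencing, where their summed level was 5021 to 5210 CPM with cisplatin and 5942 to 6192 CPM in controls. Esrrb, Lin28a, Zfp42 and Klf4, all pluripotency genes, fell by 0.61, 0.51, 0.70 and 0.49 on the log2 scale. In RNAome sequencing the sums were 364.5 to 379.0 and 419.1 to 463.7 CPM, with 0 of 10 past the threshold by edgeR and 4 at an unadjusted p under 0.05. Feeder fibroblast markers in the mRNA table, 8 in number, summed to 250.7 to 310.8 and 294.0 to 322.9 CPM, with a list median of 0.09. Of these 8, 1 fell (Vim, by 0.21 ± 0.05) and 0 rose. Of 4 trophectoderm markers in mRNA sequencing, 1 rose (Krt18, by 0.37 ± 0.10), with sums of 130.7 to 146.2 and 104.3 to 127.9 CPM. Endoderm markers summed to 3.10 to 5.96 and 3.63 to 6.55 CPM. The part of cell composition in the histone results was not tested.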

How the data were processed

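Processing bears on the histone values in several ways. The authors deposited read counts per feature for each long RNA assay, in an expression and an abundance table, with no normalization. Per the submitters' processing notes, Bowtie, TopHat and edgeR were used, in roles that are not stated, with build mm9. The sources used here give no counting rule. RefSeq entries were matched to symbols through a RefSeq table of GRCm38.p6, used for names alone (18274 of 18943 mRNA and 17133 of 17787 RNAome entries), and 1 transcript was kept per gene. The main tests took expression-table counts through edgeR 4.0.16 under R 4.3.3 (TMM, filterByExpr, quasi-likelihood test, two-sided, Benjamini-Hochberg adjustment over all genes, threshold 0.05), each treatment comparison on 6 libraries and each assay comparison on 12. SE is |log2 fold change| over the root of F. CPM uses TMM-scaled totals of tested genes. The fits were tested on simulated data. RNA sample codes, which are the same in both assays, were taken to pair the libraries. Over 9825 genes, deviations of libraries with the same code correlated at 0.0817 to 0.308, and those with different codes at up to 0.116. Alternatives were DESeq2 1.42.0, RLE scaling, totals only, no filter, the abundance table, every RefSeq row, the replicate block and each library left out. Scaling without the members, H4 without H4c4 and ratios between classes were added after seeing the data. The members and lists were chosen with earlier results of these data known. Members named are, per class and assay, the 3 with the highest counts and those with the lowest and highest fold change, members whose effect differs between assays, genes of each list with the smallest adjusted p, and Hprt. H2ac21, H2ac22, H2bc1 beside H2ac1, H3c8 and H4c11 were named after their values or sequences were seen. Small RNA libraries were not used here.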

Additional observations from a re-analysis of the deposited data

How the results depend on the processing

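Depth and the copies limit single members: control 8.4.16 has the fewest RNAome counts, and copies may share reads. Class sums kept their direction under every setting run, except the H3 sum in mRNA sequencing without control 8.5.16. The number of members that fell in mRNA sequencing was 8 from the abundance table. It was 12 to 36 over the fits that leave out a library, in which 2070 to 2783 of all genes fell. In RNAome sequencing it was 32 with totals only, 59 with DESeq2 and 23 to 57 leaving out a library, where 38 to 124 of all genes fell. For the difference between assays it was 9 with the replicate block and 0 to 22 leaving out a sample. The replicate block changed no call on levels, which stood at 58 throughout, or at every gene tested from the abundance tables. Totals only moved the median gene to 0.11 in mRNA (3853 genes higher and 1688 lower, against 2536 and 2699) and to -0.12 in RNAome sequencing (7 and 43, against 97 and 107). DESeq2 gave 57 and 103 in RNAome sequencing. Leaving out a library, class sums ranged as log2 ratios from -1.65 to -1.38 (H2A), -1.54 to -1.06 (H2B), -1.13 to -0.94 (H3), -0.93 to -0.67 (H4) and -1.24 to -0.94 (all core) in RNAome, and from -0.67 to -0.34, -0.49 to -0.15, -0.37 to 0.06, -0.39 to -0.11 and -0.57 to -0.25 in mRNA sequencing. Among values of single named members, 1172 kept their side of the threshold and their sign, 54 lost a call, 34 gained one and 24 without a call changed sign. Of the class counts, 163 stayed within 1.5 times the main value and 21 did not. The 163 include counts that were 0 in both settings and level counts with every gene called. They are therefore no measure of stability. The causes were not tested.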
